A study of Arabidopsis thaliana with 18 samples.

Results

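This report describes 150 nuclear genes of Arabidopsis thaliana whose gene body reads from transcribing RNA polymerase II (Pol II) were lowered most when seedlings were given herboxidiene. They were taken from plant native elongating transcript sequencing (pNET-seq), which reads the 3' ends of RNA held by Pol II. Of 11590 nuclear genes listed under both DMSO and herboxidiene, 8046 had at least 30 gene body reads in each table, and the 150 with the smallest ratio of herboxidiene to DMSO reads, each scaled to the total over these genes, form the set. The genes were thus chosen by this ratio of gene body reads, and it is given below as a description with no test. A gene had to keep at least 30 reads with herboxidiene to enter. Of the 10643 genes with 30 or more DMSO reads, 1981 were not listed with herboxidiene and 616 were listed there with fewer reads, so none of these could enter. Listing needed enough reads and a significant 3' end pause in that condition. An unlisted gene therefore did not have to lose gene body reads, and all 8046 genes were paused in both conditions.

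The seedlings were 14 days old. For the treatment, Col-0 wild type seedlings were immersed in buffer under vacuum and kept for an hour with herboxidiene (GEX1A) or with its solvent DMSO. Untreated Col-0 and the xrn3-3 mutant of the nuclear exonuclease XRN3 (labelled xrn3) were not immersed, so the DMSO seedlings differ from untreated Col-0 by the immersion as well as by the solvent. Each pNET-seq condition had 2 libraries and each total RNA-seq condition had 3, and the deposited tables hold 1 pooled value per condition. No spread between libraries can be given, and every interval printed here is a 95% interval for counting error only.

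Herboxidiene binds SF3b, the part of the U2 snRNP that recognises the branch point of an intron, and so blocks an early step of spliceosome assembly. pNET-seq was done with an antibody to Pol II phosphorylated on Ser2 of its C-terminal domain, the form that elongates and that accumulates near the polyadenylation site (PAS) before it leaves the template. The number of reads over a gene body follows how many polymerases start and how fast they move, and the 3' end pause index (3'PI) is the read density of the highest 50-bp window near the PAS over that of the gene body. Touch and wounding are known to switch on many stress and defence genes of plants quickly.

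The 8046 genes held 2987376 gene body reads under DMSO and 3266709 with herboxidiene. All 8 shoot markers examined were listed in Col-0, DMSO and herboxidiene, with summed reads of 92956, 9582 and 6236. Of 8 root markers, 4 were listed in Col-0 and DMSO and 3 with herboxidiene, with summed reads of 62437, 9473 and 273. PYK10, a beta-glucosidase of root cells, made most of that difference, with 9108 DMSO reads and no entry under herboxidiene. An unlisted gene adds nothing to these sums but may still have reads, since listing needs a significant pause. The sums are raw reads, and the conditions differ in depth. The 6 flower markers, which seedlings should lack, summed to 235, 147 and 15 reads. The part of tissue makeup in the results below was not tested.

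UGT87A2, a UDP-glycosyltransferase, had the smallest ratio of all. It had 1140 gene body reads under DMSO, 31 with herboxidiene and 158 in untreated Col-0. Its scaled ratio was 0.0249 (0.0168 to 0.0355), which is 40.2-fold lower. AT4G22470, a protein of the protease inhibitor and lipid transfer family, went from 780 to 40 reads, or 21.3-fold lower. RD22, a BURP domain protein known as a dehydration-responsive gene, went from 1463 to 92 reads, or 17.4-fold lower. These 3 genes had 780 or more reads under DMSO and under 100 with herboxidiene.

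AT5G19440, a Rossmann-fold protein, had 993 reads under DMSO and 65 with herboxidiene. AT5G37590, a tetratricopeptide repeat protein, had 717 and 51 reads. ELI3-1, annotated as cinnamyl alcohol dehydrogenase 7 and known as a gene switched on by pathogen elicitors, had 429 and 31 reads. These genes were 16.7-, 15.4- and 15.1-fold lower. IOS1, a leucine-rich repeat receptor kinase of pattern-triggered immunity, had 1361 and 117 reads (12.7-fold lower). AT4G19400, a profilin family protein, had 610 and 58 reads (11.5-fold lower). In 8 genes the ratio was under 0.1, and in 25 it was under 0.2.

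The last of the 12 smallest ratios were closer to each other. AT5G27760, annotated as hypoxia-responsive, had 619 reads under DMSO and 90 with herboxidiene. PMAT1, which attaches malonyl groups to phenolic glucosides in detoxification, had the most DMSO reads of the set, with 7007 against 1039. AT4G01860, a WD-40 repeat protein, had 4823 and 716 reads. UGT76E12, another UDP-glucosyltransferase, had 2087 and 332 reads. Their ratios lay between 0.133 and 0.145, that is 7.52- to 6.87-fold lower, and since these counts were large the intervals were narrow, for PMAT1 from 0.127 to 0.145.

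**Figure D1:**
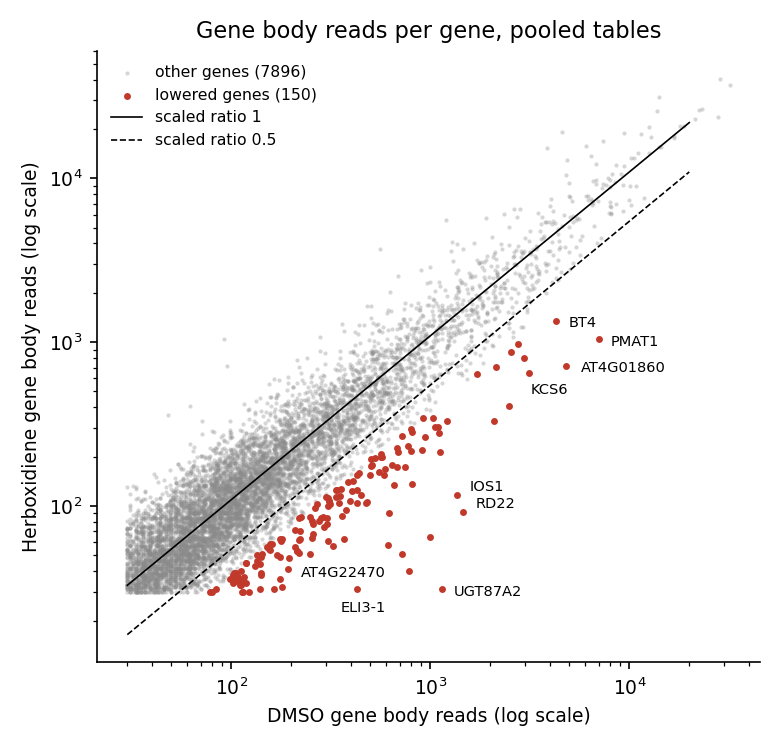
Gene body reads of each gene with DMSO (horizontal axis, log scale) and herboxidiene (vertical axis, log scale). Red points are the 150 lowered genes and grey points the other 7896 genes, the solid line marks a scaled ratio of 1 and the dashed line 0.5. All red points lie below the dashed line because the ratio chose them, and UGT87A2 (1140 and 31 reads) has the smallest ratio.

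Over the whole set the ratio ran from 0.0249 to 0.352, with a median of 0.277 (3.62-fold lower), against a median of 0.955 over all 8046 genes. A ratio of 0.5 or less was found in 6.81% of the 8046 genes, a share that includes all members by construction. The counting interval lay wholly below 0.5 for 146 of the 150 and for 2.76% of all genes, these members included. The members had a median of 309 reads under DMSO and 86 with herboxidiene, and all genes had 107 and 114. Per kb of gene body, the median member had 162 DMSO reads and 46.8 herboxidiene reads, and the median of all genes was 47.4 and 49.2. Under DMSO the members thus stood above the median gene, and with herboxidiene close to it. The rule itself favours a high DMSO level, since a low ratio with at least 30 herboxidiene reads needs many DMSO reads. The smallest DMSO count of a member was 78.

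The boundary of the set is not sharp. The last members were AT3G05160 (219 and 84 reads), AT5G60280 (224 and 86) and AT1G80290 (78 and 30), with ratios of 0.351, 0.351 and 0.352. Just outside were AT2G01680 (91 and 35 reads), GSTZ1 (101 and 39) and RPT2 (997 and 385), with ratios of 0.352, 0.353 and 0.353. These 6 ratios cannot be separated at their counting error. Reads were kept by the authors only where they mapped uniquely, so members of close families such as the UDP-glycosyltransferases, cytochrome P450s and receptor-like proteins may lose reads that a near-identical copy shares. AT4G25690 and AT4G25692 overlap on 1 strand and carry the same 214 and 53 reads, so they are 1 locus counted as 2 genes. In 5 members (3.33%, against 2.17% of all genes) the gene body overlapped another annotated gene on the same strand. Besides AT4G25692 these were AT4G19400, RLP30, MT1A and AT1G64100, whose reads may include those of the other gene. The gene body of MT1A was only 118 bp long.

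Promoter windows were read for all 8046 genes, from 250 bases before to 50 bases after the deposited gene start, and searched for short motifs known from plant promoters. The W-box, bound by WRKY factors, was searched as TTGACC or TTGACT on both strands. It was found in 68 of 150 members (45.3%) and in 33.3% of all windows. Among the 12 smallest ratios, 8 windows held it. The windows of 3 of these genes are shown because they belong to enzymes and the kinase described above, in TAIR10 coordinates and on the coding strand, with each W-box in capitals (AGTCAA is the motif on the other strand). ELI3-1 lies at chr4:17852191-17852490, IOS1 at chr1:19213898-19214197 and PMAT1 at chr5:15634336-15634635, all on the plus strand.
ELI3-1: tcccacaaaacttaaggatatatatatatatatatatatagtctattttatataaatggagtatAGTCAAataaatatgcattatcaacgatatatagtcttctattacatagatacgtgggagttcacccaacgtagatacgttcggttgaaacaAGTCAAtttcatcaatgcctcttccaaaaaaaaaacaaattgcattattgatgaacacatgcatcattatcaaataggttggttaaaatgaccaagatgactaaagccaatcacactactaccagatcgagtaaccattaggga
IOS1: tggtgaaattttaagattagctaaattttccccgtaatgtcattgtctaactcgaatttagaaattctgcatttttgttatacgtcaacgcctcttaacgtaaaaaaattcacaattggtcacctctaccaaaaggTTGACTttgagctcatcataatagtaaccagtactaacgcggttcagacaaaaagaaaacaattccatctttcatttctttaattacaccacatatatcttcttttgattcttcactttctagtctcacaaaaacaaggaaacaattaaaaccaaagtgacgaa
PMAT1: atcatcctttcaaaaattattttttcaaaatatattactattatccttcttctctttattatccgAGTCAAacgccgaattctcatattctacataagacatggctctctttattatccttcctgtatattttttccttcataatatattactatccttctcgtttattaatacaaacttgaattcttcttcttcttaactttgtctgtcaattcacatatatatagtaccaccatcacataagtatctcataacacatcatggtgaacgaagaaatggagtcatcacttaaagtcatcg
In these windows the motif began 186 and 94 bases before the start of ELI3-1, 114 before that of IOS1 and 185 before that of PMAT1. A match is a run of letters and says nothing of binding.

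The other motifs were searched on both strands, except the TATA box. The evening element core AATATCT was in 16.7% of member windows and 11.7% of all. The ABRE core ACGTGNC, known from abscisic acid response, was in 14% and 14.3%. The G-box CACGTG was in 6.67% and 11.2%, and it shares the letters ACGTG with the ABRE core. Motifs known from genes of growth and translation were in fewer member windows, with site II TGGGCC in 10% against 19.5% and the telo box core AAACCCT in 5.33% against 12%. The DRE core GCCGAC was in 2% against 4.21%, and the CGCG box CGCGTT was in 3.33% against 5.32%. The GCC box GCCGCC was in no member window and in 3.53% of all. The TATA box TATAAA, searched on the coding strand only, was in 32% and 34.6%. No test was made of these shares.

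Of the 150 members, 60 were in at least 1 of the gene lists examined and 90 were in none. The lists are given here with the number of their genes that had the read minimum. The receptor-like proteins, the POLTERGEIST-like phosphatases, the very-long-chain fatty acid and wax genes, the shikimate and phenylpropanoid genes, the UDP-glycosyltransferases and the cytochrome P450s were listed after the values of the members were seen, so their counts are descriptions only. Of all genes with the minimum, 1.86% were members. The defence list (resistance, pathogenesis-related and glucosinolate genes, with receptor-like proteins among them) gave 8 of 78. The family of receptor-like proteins gave 5 of 14, the same 5 being among the 8, so these counts are not independent. Receptor-like proteins are cell surface proteins with leucine-rich repeats and no kinase domain, several of which take part in defence. RLP30, which takes part in resistance to fungi, had 447 reads under DMSO and 117 with herboxidiene. RLP52 had 349 and 104 reads, RLP7 had 334 and 126, RLP27 had 306 and 61, and RLP13 had 135 and 50. The median ratio of the 14 was 0.525, and 13 of them were below 1. EP3, a chitinase, had 654 and 134 reads, and AT5G24620, a thaumatin-like pathogenesis-related protein, had 2135 and 709.

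Protein kinases gave 9 of 363 members, a share (2.48%) near that of all genes. Beside IOS1, the neighbouring receptor kinase AT1G51790 had 937 reads under DMSO and 262 with herboxidiene, and HAE, the HAESA receptor of organ abscission, had 170 and 50. POLTERGEIST-like phosphatases, which are protein phosphatases of the 2C type named after a regulator of meristem size, gave 3 of the 4 measured. PLL4 had 724 and 269 reads, PLL5 had 550 and 162, and PLL3 had 308 and 108.

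Very-long-chain fatty acid and wax genes gave 6 of 23. The 6 were enzymes of fatty acid elongation, an exporter of surface lipids and a lipid transfer protein. KCS6 (also called CER6), the condensing enzyme of wax precursor elongation, had 3122 reads under DMSO and 651 with herboxidiene, and after scaling its DMSO level was 1.69 times that of untreated Col-0 (1.62 to 1.77). CER10, the enoyl-CoA reductase of the same elongation cycle, had 479 and 106 reads, and KCR1, its ketoacyl reductase, had 210 and 71. KCS5, a second condensing enzyme, had 270 and 103 reads. ABCG11, which exports cutin and wax lipids, had 566 and 199 reads, and LTP5, a lipid transfer protein, had 1218 and 331. Over the 23 genes the median ratio was 0.585, with 9 at or below 0.5 and 20 below 1.

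The shikimate and phenylpropanoid list gave 5 of 26. C4H, which hydroxylates cinnamate, had 1098 reads under DMSO and 305 with herboxidiene, and CYP98A3, the later p-coumaroyl hydroxylase of the lignin route, had 218 and 52. AT1G22410, a DAHP synthase at the entry of the shikimate pathway, had 394 and 108 reads, and AT2G45300, annotated as an enolpyruvate transferase, had 84 and 31. ELI3-1 was the fifth. The median ratio of the 26 was 0.585, with 12 at or below 0.5 and 19 below 1. One gene, ADT5, was at least 2-fold higher (627 and 2024 reads), and DHS1 was also above 1 (960 and 1687 reads). Genes annotated to the UDP-glycosyltransferase superfamily gave 5 of 32 and cytochrome P450s 5 of 36, with median ratios of 0.702 and 0.619. Below 1 were 22 of the 32 and 28 of the 36. At least 2-fold higher were 2 of the 32, MGD1 (4580 and 19122 reads) and GBSS1 (31 and 118), and 0 of the 36. C4H and CYP98A3 are P450s and count in the shikimate and phenylpropanoid list as well. UGT74D1, the largest glycosyltransferase member after UGT76E12 and UGT87A2, had 805 and 284 reads.

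Transporters gave 10 of 241, with AT4G34950, a major facilitator protein, at 2535 and 870 reads. Transcription factors gave 5 of 438, a share of 1.14%. They included STOP1, the regulator of aluminium and acid tolerance, with 568 and 209 reads, and NLP7, the nitrate response regulator, with 508 and 177. MYB3R-3, a regulator of cell division genes, had 255 and 81 reads. The list of touch, wound and cold genes gave 1 of 31, the ethylene response factor RAP2.2 (799 and 294 reads), and its median ratio was 1.17. BT4, a BTB and TAZ domain protein in the ubiquitin ligase list, had 4270 and 1351 reads and was the third largest of the set.

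Several lists had no member. None of 39 heat shock and chaperone genes, 49 cell wall genes, 36 clock and light genes, 17 histone genes and 46 spliceosome genes entered, and their median ratios were 1.09, 0.929, 0.814, 1.40 and 1.04. None of 46 photosynthesis genes entered either, although 44 of them were below 1 and their median ratio was 0.642. Auxin, ribosomal protein, chromatin and cytoskeleton lists each gave 1 member, of 43, 43, 79 and 67 genes. Since 1.86% of all genes with the minimum were members, lists of these sizes are apt to hold few or none.

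Lowered genes had few introns. The median member had 2 introns and the median gene with the minimum had 5. No intron was listed for 27 members (18%) and for 9.61% of all genes, and 0 or 1 intron was listed for 60 members (40%) and 21.1% of all. Genes with 10 or more introns made 11.3% of the members and 20.3% of all. Members were also shorter, with a median length of 2159.5 bp against 2564 bp. Among genes with 100 or more DMSO reads, 18.5% of the 146 members and 12.1% of all 4266 had no intron.

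**Figure D2:**
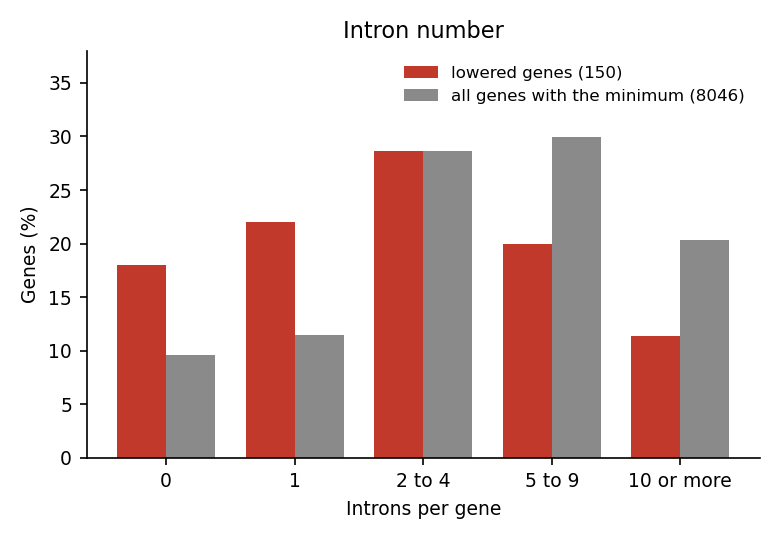
Share of genes (vertical axis, %) by number of introns (horizontal axis) for the 150 lowered genes (red) and all 8046 genes with the read minimum (grey). The red bars are higher at 0 and 1 intron (40% against 21.1% together) and lower at 10 or more (11.3% against 20.3%).

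Over all genes the ratio rose with intron number, from a median of 0.733 without introns to 0.771 with 1, 0.878 with 2 to 4, 1.05 with 5 to 9 and 1.23 with 10 or more. Of the 1633 genes with 10 or more introns, 17 were members. Their median ratio was 0.257, and that of the 27 intronless members was 0.261. The members with most introns were AT1G01320, a tetratricopeptide repeat protein with 24 introns, which had 1710 reads under DMSO and 640 with herboxidiene, and AT4G01860 with 19. POP2, the transaminase that breaks down GABA, had 18 introns with 594 and 167 reads. SBE2.1, a starch branching enzyme, had 17 introns with 384 and 141 reads, and AT3G05160 also had 17. Intronless members included PMAT1, AT4G22470 and RLP30.

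Peak window reads near the PAS were scaled to their own total over the genes with the read minimum. This is not the scale of the gene body ratio, so the scaled ratios cannot be compared directly. The scaled ratio of peak window reads had a median of 0.406 in the members and 0.870 in all genes, and it was at or below 0.5 in 101 members (67.3%) against 18.2% of all. The gene body reads used by the rule are the denominator of the 3'PI, so a lower gene body by itself raises the index. The median 3'PI of the members was 4.41 under DMSO and 5.01 with herboxidiene, and that of all genes fell from 9.69 to 6.13. The median ratio of the 2 indices was 1.24 in the members and 0.750 in all genes. The 3'PI was higher with herboxidiene in 101 of 150 members against 30.8% of all genes. It was at least 2-fold higher in 23 members against 2.37% of all genes, and at least 2-fold lower in 11 against 29.6%.

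This difference was found with and without introns. The rule favours it in both, since the gene body reads that chose the members are the denominator of the index. In intronless genes the median ratio of the 3'PI was 1.45 in the 27 members and 1.18 in all 773, and it was higher with herboxidiene in 26 of 27 and in 73.5%. In genes with introns it was 1.14 in the 123 members and 0.695 in all 7273, and it was higher in 75 of 123 and in 26.3%.

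**Figure D3:**
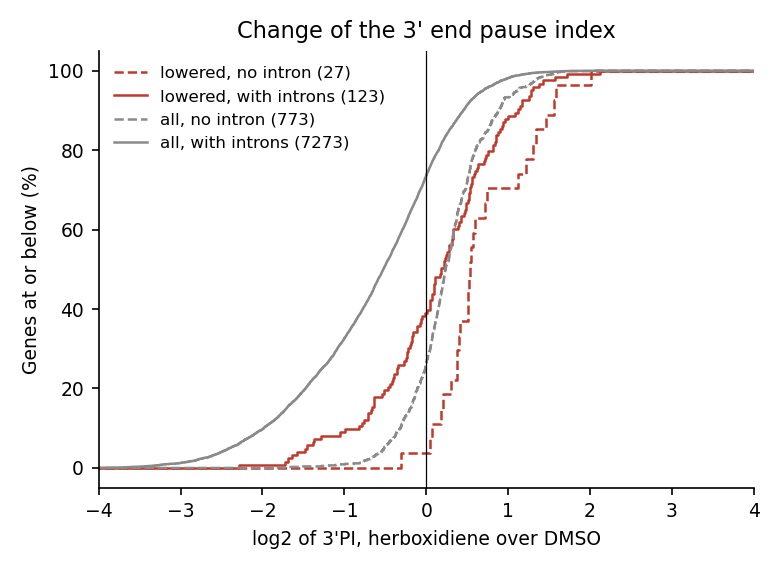
Cumulative share of genes (vertical axis, %) by the log2 ratio of the 3'PI with herboxidiene over DMSO (horizontal axis). Red lines are lowered genes and grey lines all genes, dashed without introns and solid with introns. Both red lines lie to the right of the grey line of the same type, with medians of 1.45 against 1.18 without introns and 1.14 against 0.695 with introns as linear ratios. The rule favours this shift, since the gene body reads that chose the lowered genes are the denominator of the 3'PI.

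Single genes moved both ways. UGT87A2 rose from a 3'PI of 7.08 to 23.27, with 291 peak window reads under DMSO and 26 with herboxidiene. RD22 rose from 1.83 to 4.44 with 59 and 9 peak window reads, and CER10 from 2.38 to 5.05 with 32 and 15. In contrast AT4G01860 fell from 7.62 to 2.44 with 273 and 13 peak window reads, NLP7 from 19.87 to 7.13 with 128 and 16, and HOL1, a methyltransferase that makes methyl halides, from 5.48 to 2.1 with 358 and 37. In these last 3 genes the peak window lost a larger share of its reads than the gene body did.

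The peak window stayed within 25 bp of its DMSO position in 107 of the 150 members (71.3%) and in 65.9% of all genes. The windows of 3 genes are shown to locate the reads, each as its coding strand with the bases common to both conditions in capitals. For UGT87A2 the window was chr2:12873991-12874040 under DMSO and chr2:12873961-12874010 with herboxidiene, both past the PAS. For KCS6, on the minus strand, it was chr1:25712654-25712703 and chr1:25712664-25712713, before the PAS. For PMAT1 it moved from chr5:15635921-15635970, before the PAS, to chr5:15636141-15636190, past it, and shared no base.
UGT87A2, DMSO: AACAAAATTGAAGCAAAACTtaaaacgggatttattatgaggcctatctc
UGT87A2, herboxidiene: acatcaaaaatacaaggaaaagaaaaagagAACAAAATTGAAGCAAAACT
PMAT1, DMSO: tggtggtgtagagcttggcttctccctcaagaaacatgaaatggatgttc
PMAT1, herboxidiene: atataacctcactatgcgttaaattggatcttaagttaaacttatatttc
KCS6, DMSO: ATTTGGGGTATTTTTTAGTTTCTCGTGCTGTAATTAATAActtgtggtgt
KCS6, herboxidiene: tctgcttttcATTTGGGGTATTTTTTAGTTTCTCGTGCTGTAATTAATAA
The KCS6 windows held 130 and 38 reads and shared 40 bases. The PMAT1 windows held 704 and 135 reads, and the 3'PI of PMAT1 was 2.37 and 3.07.

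Total RNA-seq of separate libraries measured what the rule did not use. Exonic reads next to splice sites were summed per gene over introns counted in both conditions, so intronless genes have no value, and an intron is counted only where the gene reached a TPM of 1. Of the 123 members with introns, 81 were measured in both conditions, 30 were counted under DMSO only, none with herboxidiene only and 12 in neither. The 30 made 24.4% of the 123, against 10.2% of all genes with introns. UGT87A2, IOS1, UGT76E12, RLP52 and HAE were among them. Their median gene body reads in pNET-seq were 318.5 under DMSO and 79.5 with herboxidiene.

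The exonic reads of the 81, which leave out the 30 counted under DMSO only, fell less than the gene body reads that chose the members. The median scaled ratio was 0.811, against 0.941 over the 5837 genes that also had the pNET-seq minimum and 0.974 over all 9650 genes of the total RNA tables. It was below 1 in 58 of the 81 (71.6%) and in 58.5% of the 5837. At least a 2-fold lower ratio was found in 14 of 81 against 3.30% of all genes, and at least a 2-fold higher ratio in none against 1.49%. The counting interval lay below 1 in 49 of the 81, spanned 1 in 19 and lay above 1 in 13. Over all genes it lay below 1 in 38.5% and above 1 in 30.9%.

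AT4G01860 had the lowest ratio among members with 100 or more exonic reads in both conditions, with 6168 reads under DMSO and 988 with herboxidiene, a ratio of 0.212 (0.198 to 0.226). AT1G27020 had 3581 and 663 reads, a ratio of 0.245 (0.225 to 0.266), and AT5G36925 had 562 and 110 reads, a ratio of 0.259 (0.209 to 0.318). At lower depth EP3 had 512 and 91 reads and AT1G22830 had 36 and 1, with ratios of 0.235 and 0.0367 (0.000904 to 0.218). The gene body ratio of AT4G01860 was lower than its exonic ratio, at 0.136 (0.125 to 0.147), that of EP3 was 0.187 (0.154 to 0.226), and that of AT1G27020 was higher than its exonic ratio, at 0.349 (0.295 to 0.413).

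Other members had as many or more exonic reads after scaling. LTP5 had 847 exonic reads under DMSO and 1145 with herboxidiene, a ratio of 1.79 (1.63 to 1.95), beside a gene body ratio of 0.249. AT5G42070 had 349 and 415 reads, a ratio of 1.57 (1.36 to 1.82). MT1A, a metallothionein that binds copper and zinc, had 17665 and 20165 reads, a ratio of 1.51 (1.48 to 1.54). ELI3-1 had 575 and 637 reads, a ratio of 1.46, although its gene body ratio was 0.0661. Of the wax genes, KCS6 had 461 and 316 reads (0.905), CER10 had 285 and 217 (1.01) and KCR1 had 489 and 212 (0.573). BT4 had 1760 and 725 reads (0.544), and RD22 had 1766 and 1133 (0.848).

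**Figure D4:**
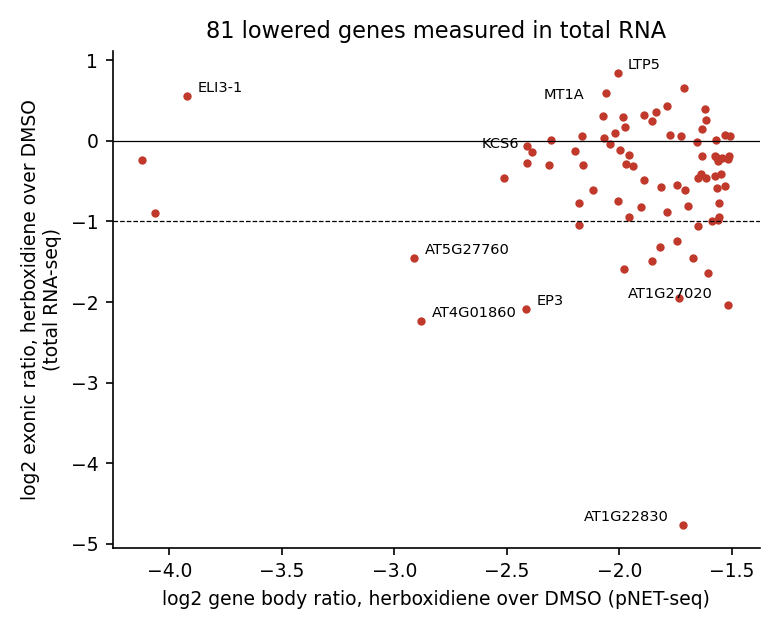
Log2 ratio of exonic reads in total RNA-seq (vertical axis) against the log2 ratio of gene body reads in pNET-seq (horizontal axis), both herboxidiene over DMSO, for the 81 lowered genes measured in both. Each point is a gene, the solid line marks no change and the dashed line a 2-fold lower exonic ratio, with 14 genes at or below it and 58 below the solid line.

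For splicing, summed intronic against exonic reads of each gene were compared between the pooled libraries with Fisher's exact test (two-sided) and Benjamini-Hochberg adjustment over all 9650 genes. The test compares these pooled libraries and not the conditions. Of the 81 members, 63 were called inhibited (a higher ratio of intronic to exonic reads with herboxidiene, adjusted p under 0.05), against 85.6% of all genes. The call went the other way in 5 members against 1.19% of all genes, and 13 did not pass. Among the 5837 genes that also had the pNET-seq minimum, 5412 were called inhibited and 36 the other way. The median splice site ratio of the members was 0.0601 under DMSO and 0.259 with herboxidiene, and over all genes it was 0.0577 and 0.248. BT4 went from 0.0903 to 0.564, LTP5 from 0.0626 to 0.572 and NLP7 from 0.0302 to 0.224.

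The 5 members called in the other direction were AT4G01860, HOL1, POP2, SEX4 and AT3G05160, named after their values were seen. AT4G01860 went from 1079 intronic and 6168 exonic reads to 100 and 988, a fall of the ratio from 0.175 to 0.101. SEX4, a phosphatase that acts on starch, went from a ratio of 0.124 to 0.0282. Of the 14 members with exonic reads at least 2-fold lower, 12 were called inhibited. In chromatin-bound RNA of untreated Col-0 the median splice site ratio was 0.321 over 113 members and 0.325 over 15234 genes.

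Most members stood higher under DMSO than in untreated Col-0. This comparison shares the DMSO table with the rule, and genes with a high DMSO value are favoured by it, so it is a description. With 30 reads or more in both tables, 139 members could be compared, and their median scaled ratio of DMSO to Col-0 was 1.71, against 0.846 over 10271 genes. At least a 2-fold higher level was found in 60 members against 12.8% of all genes, and at least a 2-fold lower level in 13 against 20.7%. AT4G01860 had 168 reads in Col-0 and 4823 under DMSO, which is 78.3-fold higher after scaling. PMAT1 had 843 and 7007 reads (22.7-fold), UGT87A2 158 and 1140 (19.7-fold), and RD22 250 and 1463 (15.96-fold). UGT76E12 had only 5 reads in Col-0 against 2087 under DMSO.

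**Figure D5:**
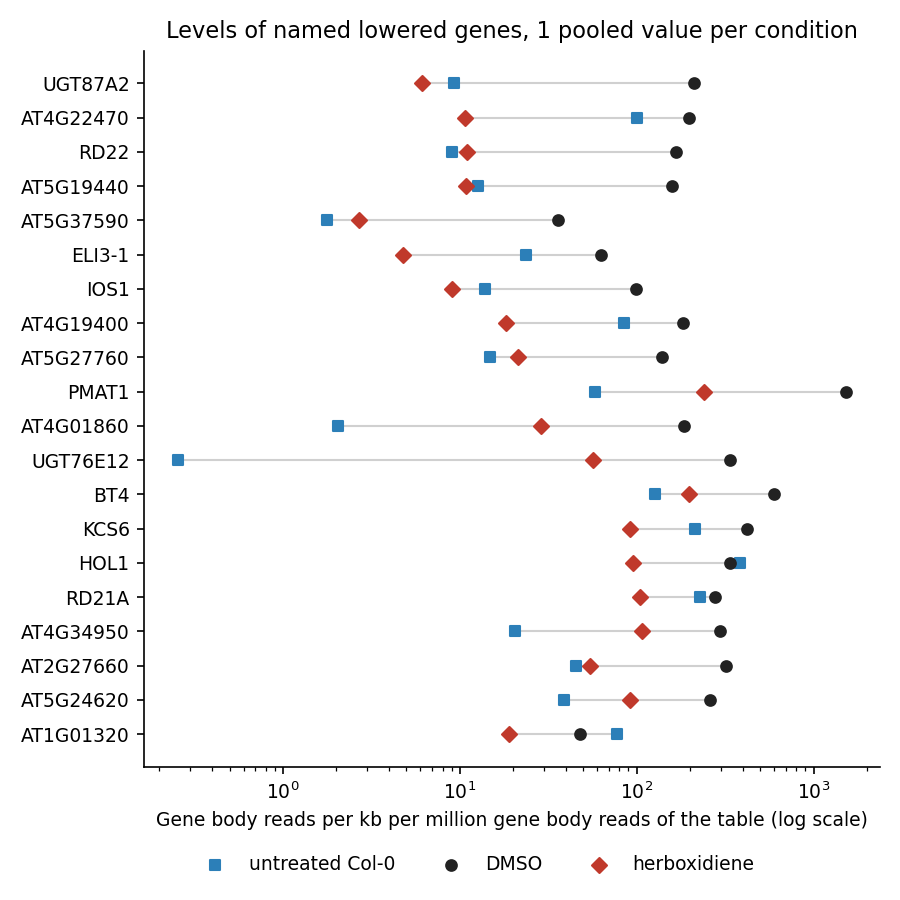
Gene body reads per kb and per 1000000 gene body reads of the table (horizontal axis, log scale) for the 12 lowered genes with the smallest ratio and the 12 with most DMSO reads (20 genes in all, since some are in both). Squares are untreated Col-0, circles DMSO and diamonds herboxidiene, each 1 pooled value with no error bar. In RD22 the herboxidiene value lies a little above the Col-0 value, and in UGT87A2 and AT5G19440 it lies below the Col-0 value. In all 3 the DMSO value lies far above both, and in HOL1 and AT1G01320 DMSO lies below Col-0. Ratios to Col-0 in the text are scaled to the genes compared instead. On that scale the herboxidiene ratios of RD22, UGT87A2 and AT5G19440 are 0.912, 0.486 and 0.642, so the side of RD22 depends on the scaling.

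With herboxidiene the median ratio to Col-0 was 0.454 over the same 139 members, against 0.841 over all genes. The herboxidiene reads were used by the rule, which favours low values here, so this too is a description. The ratio was at least 2-fold lower in 76 against 26.2% of all, and at least 2-fold higher in 14 against 14.6%. In 69 members the level was above Col-0 under DMSO and below it with herboxidiene. In 29 it was above Col-0 under both, as in PMAT1 (3.05-fold above with herboxidiene) and AT4G01860 (10.6-fold above). In 41 it was below Col-0 under DMSO and further below with herboxidiene. LAC7, a laccase, was the extreme of the last group, with 5671 reads in Col-0, 262 under DMSO and 97 with herboxidiene. YLS5, a glutamine amidotransferase-like protein, had 3171, 258 and 78 reads. Both were chosen after their values were seen. A further 8 members were not listed in Col-0, and 3 had fewer than 30 reads there.

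In untreated Col-0 the members had a median of 263 reads per kb against 145 over all genes. The rule favours genes with many DMSO reads, so this is a description. The 3'PI of the members in Col-0 was low, with a median of 9.46 against 19.8. With the xrn3 label the medians were 9.09 and 21.4. In Col-0 the median was 3.99 in intronless members and 11.07 in members with introns. Members had fewer introns than all genes, and the paper reports a higher 3'PI in genes with more exons. The rule also favours many gene body reads, the denominator of the index. The part of either in the low 3'PI was not tested. XRN3 itself had 302 gene body reads in Col-0 and 9931 under the label xrn3, so gene body reads do not show a loss of its transcription. The median ratio of xrn3 to Col-0 was 1.09 in the members and 0.981 over 16639 genes. It was at least 2-fold higher in 6 members against 3.16% of all, and at least 2-fold lower in 5 against 0.607%. The 6 included the neighbours AT5G02180 (382 and 2795 reads) and AT5G02170 (493 and 2682), both transporters. The 5 included AT4G22470 (1251 and 763 reads) and RLP7 (162 and 161).

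In 12 pairs the members lay within 10 kb of each other, in some with other genes between them, and no count for other sets of genes was made. These include the overlapping pair AT4G25690 and AT4G25692. IOS1 and AT1G51790 are receptor kinase genes on opposite strands 2730 bp apart, with ratios of 0.0786 and 0.256. AT5G02170 and AT5G02180 are 181 bp apart on 1 strand, with ratios of 0.319 and 0.227, and CYP71B23 and CYP71B24 are 2761 bp apart, with ratios of 0.333 and 0.243. HOL1 and the phosphatase gene 5PTase12 are 589 bp apart on 1 strand, with ratios of 0.246 and 0.23.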

How the data were processed

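The set and the gene lists were chosen with earlier results of these data known. For pNET-seq the authors mapped reads to TAIR10 with HISAT2 2.2.0, kept unique reads and removed PCR duplicates by molecular identifiers. The deposited reads of gene bodies and peak windows are raw counts, TPM was computed by the authors per condition, and the deposited 3'PI is the authors' ratio of peak window to gene body density. The tables list genes with a TPM of at least 1 and a significant pause in the authors' test, whose p-value and q-value columns were not used. For RNA-seq the authors trimmed with Trimmomatic 0.39, and the deposited counts of exonic and intronic reads next to each splice site were summed per gene. Libraries (2 per pNET-seq or chromatin-bound RNA-seq condition, 3 per total RNA-seq condition) were pooled by the authors, so there is no replicate value, no SD and no test across replicates. Groups follow the labels.

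The nuclear genes listed held 3874349 gene body reads for DMSO, 3671597 for herboxidiene, 12224996 for Col-0 and 25790239 for xrn3. Reads were scaled to their total over the genes compared, with at least 30 gene body reads in each table or 20 exonic reads over both conditions. A change counted as called from 2-fold. Ratio intervals are exact conditional binomial intervals at 95%, which cover counting error only. The Fisher test of splicing, adjusted by Benjamini-Hochberg (threshold 0.05), was tested on simulated data: of 200 genes raised 2-fold among 9650, 86.5% were called, and 2.81% of the calls were unchanged genes. The simulated reads held counting error only, with no variation between libraries, and far fewer genes changed than were called in the data. These shares therefore do not give the rate of false calls in the data.

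Genes were named by rule: the 12 smallest ratios, the 12 with most DMSO reads, up to 4 of each list, 3 on either side of the last rank, the 3 lowest and 3 highest total RNA ratios with 100 exonic reads in both conditions, and the 4 with most introns. Any other gene named was chosen after its values were seen. Genes that only share a symbol with a list (cyclophilins named CYP, for example) were left out of it. Symbols came from RefSeq, which gave 80 of the 150 a symbol other than the locus. Sequences were read from the TAIR10.1 RefSeq genome, in which 98.8% of the 121244 listed introns have GT and AG ends. The tools were pandas 2.3.3, scipy 1.17.1 and numpy 2.4.6 in Python 3.11.15, with plots by matplotlib 3.10.9. Alternatives covered scaling, the read minimums, TPM, peak window reads, thresholds, splice sites and exon definition.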

Additional observations from a re-analysis of the deposited data

How the results depend on the processing

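No paired analysis was possible because each table pools the libraries of its condition, and for the same reason no library could be left out. The median gene body ratio of the members was 0.277 and moved to 0.406 with peak window reads scaled to their own total, with 4 members then above 1. It was 0.290, 0.319 and 0.342 with median scaling, scaling to uniquely mapped reads and deposited TPM, and with TPM 140 of 150 stayed below 0.5 while CYP98A3 stood at 1.04. Of the 150 members, 124 were shared at a minimum of 20 reads, 112 at 50 and 68 at 100, where only 68 of the members have 100 reads in both tables. The count of members with exonic reads lower in total RNA was 14 at 2-fold and 28 at 1.5-fold, against 11.97% of all genes at 1.5-fold. The median DMSO over Col-0 ratio of 1.71 became 2.02 with median scaling, with 73 members at least 2-fold higher against 16.7% of all genes. The other settings covered read minimums, scaling, single splice sites, a threshold of 0.01 and exon number. They moved no median beyond the median bounds of the single-gene counting intervals, and no count by more than 1.5 times. Such bounds are those of a single gene and not of a median, so they are a loose limit. With 10 or more peak window reads in both tables, which 110 members had, the median ratio of the 3'PI was 1.24 against 0.804 over all such genes. Depth limits single genes most in the peak window.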
